A study of Mus musculus with 11 samples.

Results

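The genes described here code for the enzymes with which the liver breaks down amino acids, turns their nitrogen into urea and makes serine and asparagine. They were chosen by name from a list of 49 genes, and 40 of these have a spot on the array, out of 13406 genes named on it. Of the 40, 11 held enough values to be tested in all 3 groups, 19 held some values and 10 held none on the arrays used. No member passed the test between any pair of groups. Cps1, Nags, Gls2, Gpt2, Tat, Sds, Sdsl, Amt and Aldh4a1 have no named spot and were not analysed here.

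The liver takes up amino acids from the diet and from muscle. Aminotransferases move the amino group onto glutamate and aspartate, glutamate dehydrogenase frees it as ammonia, and the urea cycle joins ammonia and aspartate nitrogen into urea. The carbon skeletons go through separate pathways into glucose, ketone bodies or the citric acid cycle. In rodents many of these enzymes are known to follow the protein content of the diet and to respond to fasting through glucagon and glucocorticoids.

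Livers came from C57BL/6J mice, and the study compared 3 states of energy balance with 1 mouse per array. Fasted mice (3 arrays, from a group of 4 mice) ate a high-fat diet for 10 weeks and had no food in the final 48 h. High-fat mice (4 arrays, from 5 mice) ate the same diet with no fast, and control mice (4 arrays, from 9 mice) ate rodent chow for 10 weeks. The high-fat diet held 42.16% fat, 42.81% carbohydrate and 15.02% protein, at 4.53 kcal/g. Chow held 6.5% fat, 49% carbohydrate and 23% protein, at 3.5 kcal/g. The high-fat shares make up nearly the whole and the chow shares do not, so the percentages may be on different bases. The sizes of the differences between diets are therefore not compared. A response to fat cannot be told apart from a response to less protein or to energy density. There were no fasted mice on chow, so a response to the fast was measured after the high-fat diet alone.

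Each array compared liver RNA with a universal mouse reference RNA, and a value is the log ratio of liver over reference, taken as log2, with the median of its array subtracted. A positive value thus means a liver-to-reference ratio above that of the median spot. Ratios of different genes are not compared as levels, because each depends on how much of that gene the reference holds. Of 17280 spots, 3864 to 5567 held a value on an array, and the 10 arrays used correlated with each other with Pearson r from 0.69 to 0.94. High-fat array 4 was left out, since its r with each of these was at most 0.01. The spread of the ratios, as the median absolute deviation scaled to match a normal SD, was 0.65 to 0.73 on fasted, 0.39 to 0.58 on high-fat and 0.64 to 0.77 on control arrays, so changes are also given with the arrays scaled to 1 spread. The 9 hepatocyte markers filled on every array averaged 1.29 to 1.44 in fasted, 1.23 to 1.63 in high-fat and 1.60 to 2.67 in control livers. Of the markers with a spot, 0 of 3 pancreas, 0 of 2 muscle and 0 of 3 kidney markers held a value on any of the 10 arrays. An empty spot does not show absence, because the hepatocyte marker Fgg and 10 members were empty on these arrays too. In whole liver, fewer hepatocytes and less of an RNA in each cannot be told apart.

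Empty cells limited what could be seen of these pathways. Between 13 and 24 of the 40 members held a value on fasted arrays, between 12 and 18 on high-fat arrays 1 to 3 and between 14 and 30 on control arrays. At least 2 values were present for 18 members in fasted, 14 in high-fat and 29 in control livers. Control array 2 was the fullest, and all 19 members that were filled in part had a value on it. Where it could be compared with another control array, it held the highest control value for 25 of 29 members. The same count was not made over all genes. Control array 2 also had the widest spread of ratios among the control arrays, at 0.77 against 0.64 to 0.74. Of all filled cells of members 73.8% lay above the array median, against 50.1% of the filled cells of all named spots.

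**Figure D1:**
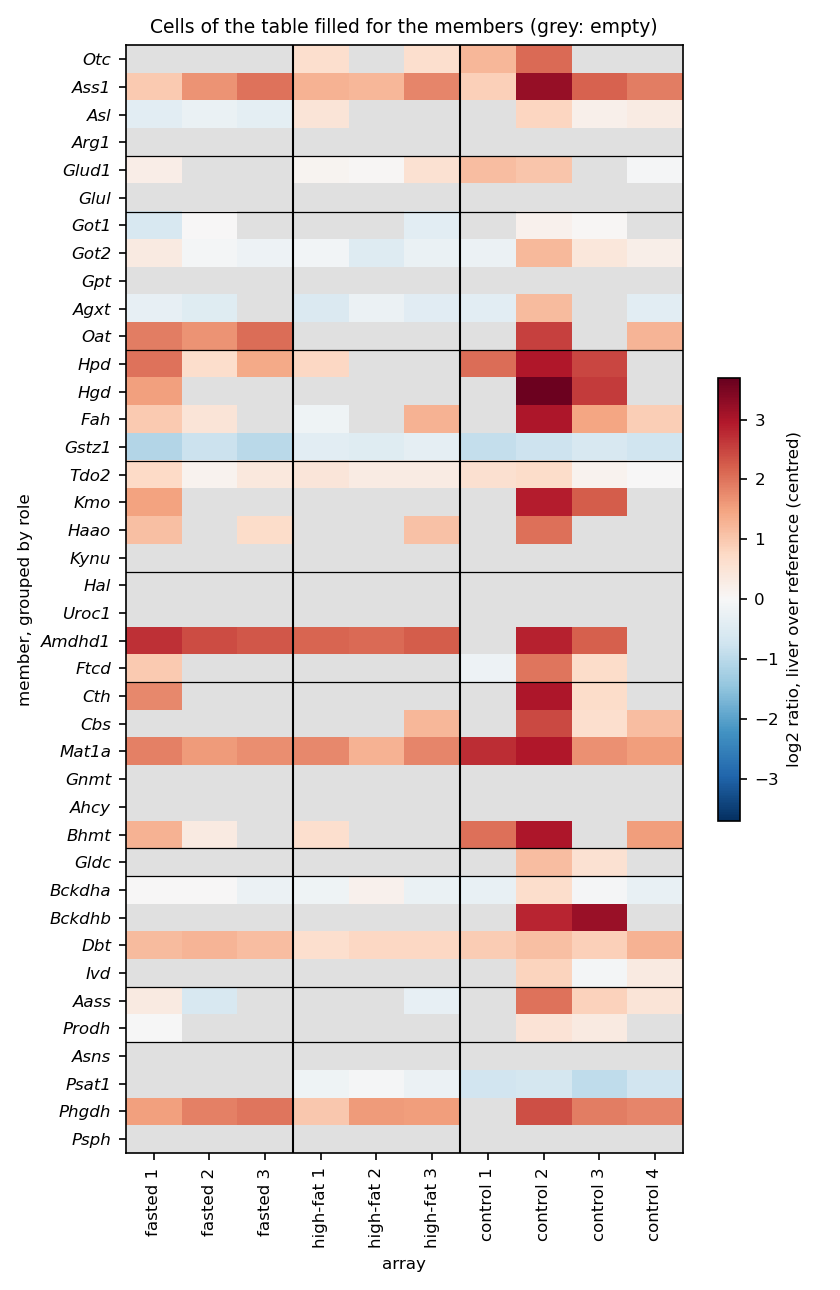
Centred log2 ratio of liver over reference for the 40 members with a spot (rows, ordered by role, with lines between roles) on the 10 arrays used (columns, with lines between fasted, high-fat and control), where grey marks an empty cell. Control array 2 holds values for 30 members and high-fat array 2 for 12, and 10 members are empty throughout.

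Between high-fat and control livers, 0 of 11 tested members passed at an adjusted p under 0.05 (limma with Benjamini-Hochberg adjustment over all 3558 genes tested), against 4.92% of all genes. At an unadjusted p under 0.05 there were 4 members (Dbt, Got2, Gstz1 and Phgdh), against 25.2% of all genes. The arrays of both groups did not overlap for 3 members, against 25.4% of all genes, a share near the background. High-fat livers had the lower mean ratio in 10 of 11 members, with a median log2 change of -0.52, while the median over all genes was 0.08. With arrays scaled to 1 spread 6 of 11 were lower and the median was -0.05, with quantile normalisation the median was 0.03, and without control array 2 it was -0.26. On the members filled on every array, the mean of the 7 ratios was 0.40 to 0.55 in high-fat and 0.53 to 1.29 in control livers, with control array 2 at 1.29 and the other control arrays at 0.53 to 0.66. The mean of the hepatocyte markers was likewise highest on control array 2, at 2.67. With scaled arrays it was highest on high-fat array 1, at 2.66 against 2.17 on control array 2. Of the 10 hepatocyte markers that could be tested (14 listed, 12 with a spot), 9 had lower means in high-fat livers. Their median was -0.56, which turned to 0.22 with scaled arrays. One of these passed, the apolipoprotein gene Apoa1, with means of 1.39 in high-fat and 2.40 in control livers (adjusted p = 0.048, limma). None of the markers passed with scaled arrays (smallest adjusted p 0.246) or in the fit of both groups alone (0.0555). Their part in the members' values was not tested.

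Between fasted and high-fat livers 0 of 11 members passed, against 0.365% of all genes, and 2 members (Dbt and Gstz1) had an unadjusted p under 0.05, against 14.6% of all genes. The arrays did not overlap for 3 members, against 28.8%. Fasted livers had the higher mean ratio in 10 of 11 members, and the median change was 0.10 (-0.05 over all genes), which turned to 5 of 11 and a median of -0.08 with arrays scaled to 1 spread. Between fasted and control livers 0 of 11 passed, against 3.20% of all genes. None had an unadjusted p under 0.05 there, against 20.4%, and the arrays overlapped for all 11, against 22.2% of all genes that did not overlap. The median was -0.25 (0.02 over all genes), with 9 of 11 lower in fasted livers, -0.19 with scaled arrays and -0.09 without control array 2. Hepatocyte markers had lower means in fasted livers in 9 of 10, with a median of -0.58, or -0.51 with scaled arrays. Of these the transthyretin gene Ttr passed, with means of 1.24 in fasted and 2.62 in control livers (adjusted p = 0.0216, limma). So did Kdr, the only endothelial marker that could be tested (7 listed, 6 with a spot). It had 1.11 in fasted and 0.21 in control livers (adjusted p = 0.0181, limma). None of the macrophage, lymphocyte and granulocyte, stellate or bile duct markers tested passed in any comparison. With scaled arrays none of the hepatocyte markers passed (smallest adjusted p 0.0812, limma), nor did Kdr (0.0507). In the fit of both groups alone 1 hepatocyte marker passed (smallest adjusted p 0.00939, limma), and so did Kdr (0.0373). The same held in that fit with scaled arrays (0.0106 and 0.0288). The part of these markers in the members' values was not tested. With scaled arrays no tested member passed in any of these comparisons, against 3.51% of all genes for high-fat minus control, 0.422% for fasted minus high-fat and 0.281% for fasted minus control. At an unadjusted p under 0.05 there were then 1, 1 and 0 members in that order, against 19.2%, 9.75% and 15.3% of all genes. High-fat arrays stand in the first and second of these comparisons with opposite sign, so their changes are not independent.

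**Figure D2:**
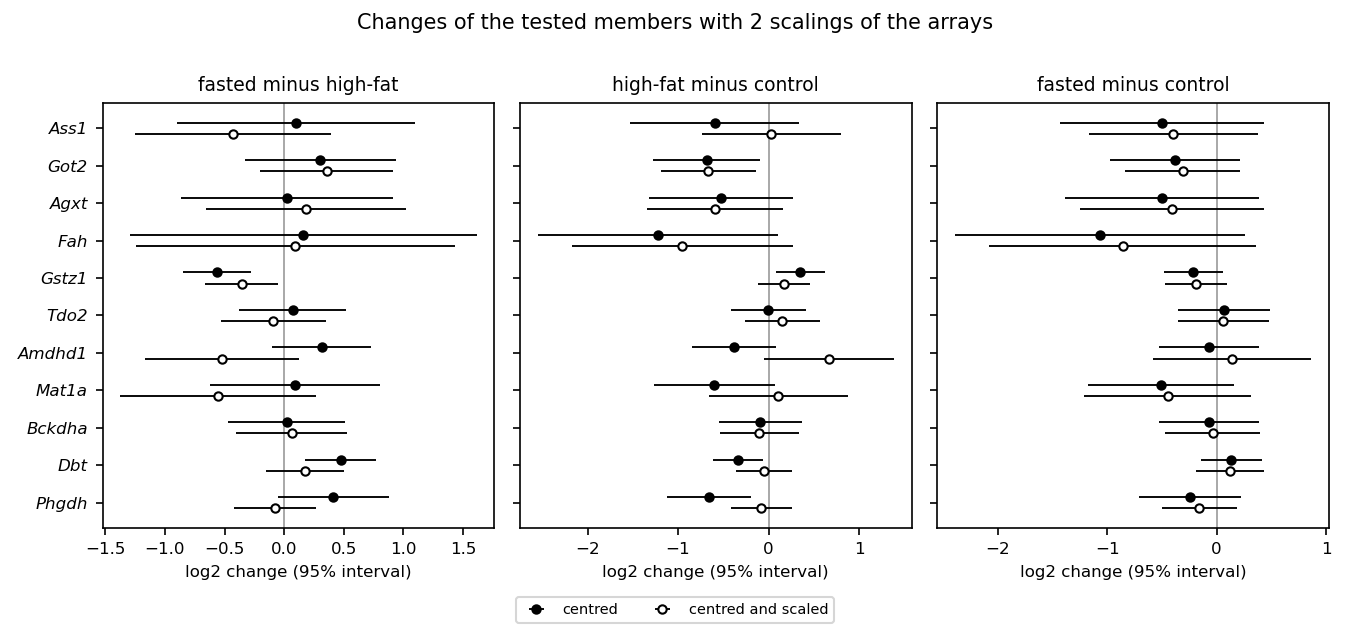
Log2 change of the 11 tested members (rows) in the 3 comparisons (panels), as points with 95% intervals, for arrays centred on the median (filled) and also scaled to 1 spread (open). For Amdhd1 the high-fat minus control change is -0.38 centred and 0.66 scaled, while for Got2 it is -0.68 and -0.66.

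Members with fewer than 2 values in the third group were tested in fits of the 2 groups alone, over every gene with 2 or more values in each. This added Glud1, Otc and Psat1 between high-fat and control and Aass, Asl, Bhmt, Got1, Hpd and Oat between fasted and control. None of 14 members passed between high-fat and control, against 0.640% of 3907 genes, and 6 had an unadjusted p under 0.05, against 21.0% of these genes. None of 11 passed between fasted and high-fat, against 1.31% of 3753 genes, and 2 had an unadjusted p under 0.05, against 19.7%. None of 17 passed between fasted and control, against 1.20% of 3905 genes, and 4 had an unadjusted p under 0.05, against 18.5%. The arrays of both groups did not overlap for 5 of 14, 3 of 11 and 5 of 17 members in that order. Over all genes in these fits this held for 1011 of 3907, 1100 of 3753 and 899 of 3905.

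The urea cycle was measured at 3 of its steps. Ass1, which joins citrulline and aspartate to argininosuccinate, had ratios of 0.97, 1.65 and 2.00 in fasted, 1.30, 1.23 and 1.80 in high-fat and 0.87, 3.22, 2.17 and 1.89 in control livers. The 3 groups overlapped, with the lowest and the highest value both among controls. Its log2 change was -0.59 ± 0.43 (SE, n = 3 and 4, adjusted p = 0.414, limma) between high-fat and control, with a 95% interval from -1.53 to 0.34. It was 0.03 with scaled arrays, -0.20 without control array 2 and -0.98 without control array 1.

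Asl, which splits argininosuccinate into arginine and fumarate, had ratios of -0.38, -0.24 and -0.37 in fasted livers, 0.48 on the single high-fat array filled, and 0.79, 0.20 and 0.31 on 3 control arrays. All 3 fasted values lay below 0 and all control values above it. The change was -0.76 ± 0.18 (SE, n = 3 each, adjusted p = 0.0773, limma fit of both groups), -0.67 with scaled arrays (adjusted p = 0.0725) and -0.59 without control array 2 (adjusted p = 0.0888). Otc, which makes citrulline from ornithine and carbamoyl phosphate in mitochondria, had 0.61 and 0.63 in high-fat livers, against 1.22 and 2.10 in control livers. The groups did not overlap, with 2 arrays each, and the change of -1.04 ± 0.30 (SE, adjusted p = 0.129, limma fit of both groups) was -0.62 with scaled arrays. Arg1, the arginase that releases urea, held no value on the 10 arrays.

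Glutamate handling was seen through Glud1, the mitochondrial glutamate dehydrogenase. It had 0.25 on the single fasted array filled, 0.11, 0.05 and 0.56 in high-fat livers and 1.15, 1.03 and -0.05 in control livers. One control array lay below all high-fat arrays and the other control values above them, and the change between high-fat and control was -0.47 ± 0.31 (SE, n = 3 each, adjusted p = 0.410, limma fit of both groups). Glul, glutamine synthetase of the pericentral hepatocytes, held no value.

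Aminotransferases were measured for aspartate, alanine-glyoxylate and ornithine. Got2, the mitochondrial aspartate aminotransferase, had 0.33, -0.08 and -0.19 in fasted, -0.11, -0.49 and -0.25 in high-fat and -0.23, 1.20, 0.41 and 0.22 in control livers. The high-fat values were all negative, and control array 1 lay among them. The change between high-fat and control was -0.68 ± 0.27 (SE, n = 3 and 4, adjusted p = 0.144, limma), or 1.61-fold lower, and ran from -0.89 to -0.42 (without control array 2) over all other settings, quantile normalisation and scaled arrays among them, with adjusted p of 0.0702 or more. Between fasted and high-fat livers it was 0.30 ± 0.29 (SE).

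Got1, the cytosolic form, had -0.58 and 0.00 in fasted livers, -0.38 on 1 high-fat array and 0.17 and 0.04 in control livers. Agxt, which transfers an amino group from alanine to glyoxylate, had -0.30 and -0.44 in fasted, -0.54, -0.22 and -0.42 in high-fat and -0.40, 1.17 and -0.38 in control livers. Control array 2 stood alone at 1.17, and the high-fat minus control change was -0.52 with it and -0.00333 without it. Oat, which opens ornithine breakdown, had 1.88, 1.66 and 2.08 in fasted livers and 2.52 and 1.26 in control livers, which overlapped, and held no value in high-fat livers. Both spots of Gpt, the alanine aminotransferase, were empty.

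**Figure D3:**
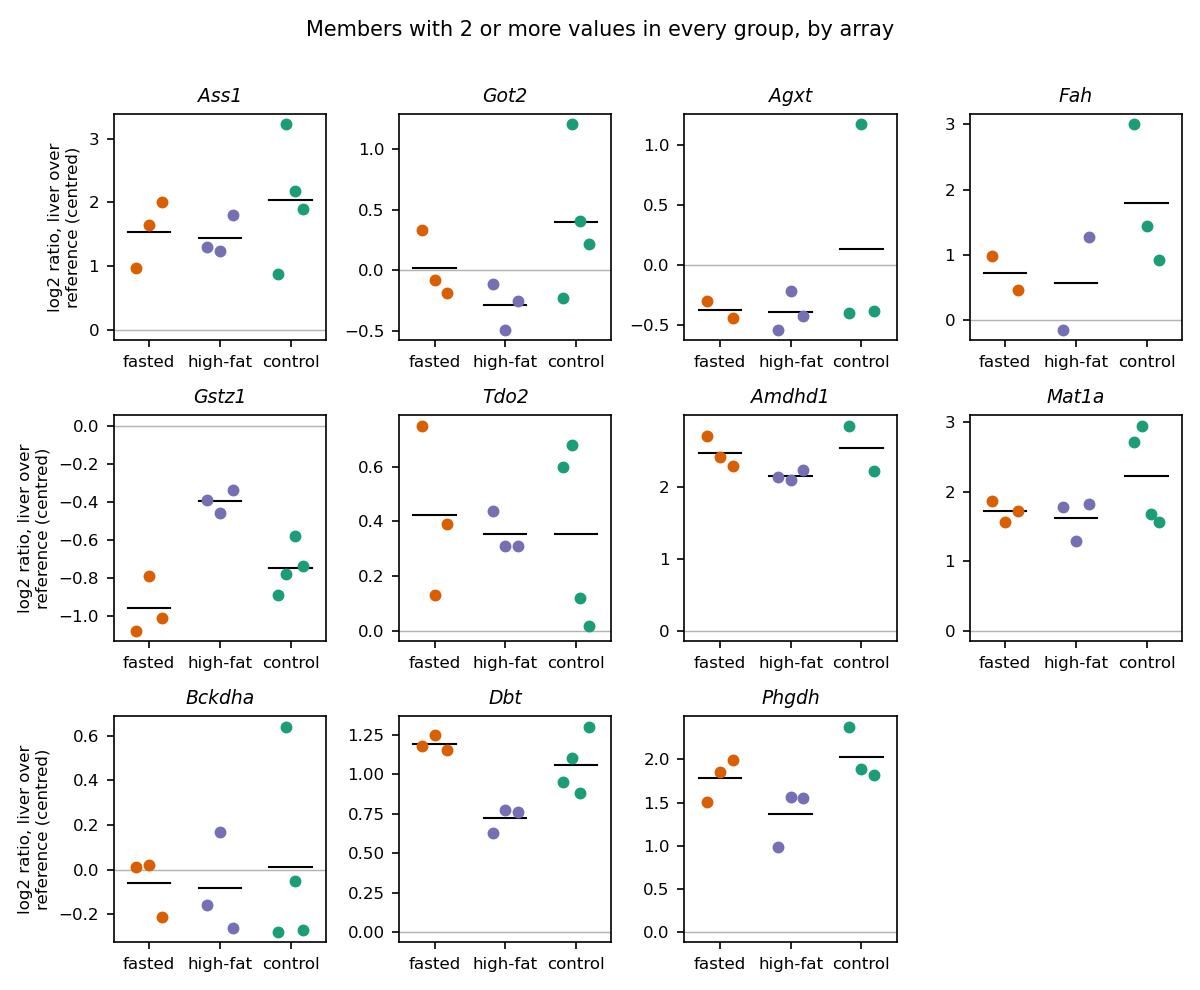
Centred log2 ratio of liver over reference for the 11 members with 2 or more values in every group; each point is 1 array, bars are group means, and each panel has its own vertical axis. Dbt and Gstz1 separate high-fat from fasted and from control arrays in opposite directions, while Ass1, Agxt and Bckdha overlap, with control array 2 highest. With arrays scaled to 1 spread, only Gstz1 between fasted and high-fat kept its separation among these. Over all genes, 25.4% did not overlap between high-fat and control and 28.8% between fasted and high-fat.

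Tyrosine breakdown runs through Hpd, Hgd, Gstz1 and Fah. Fah, which splits fumarylacetoacetate at the last step, had 0.98 and 0.47 in fasted, -0.15 and 1.28 in high-fat and 3.00, 1.45 and 0.92 in control livers. The values of the groups overlapped, and the high-fat minus control change of -1.23 ± 0.59 (SE, n = 2 and 3, adjusted p = 0.230, limma) had a 95% interval from -2.55 to 0.10. It was -0.62 without control array 2. Hpd, which oxidises hydroxyphenylpyruvate, had 2.00, 0.65 and 1.40 in fasted livers, 0.77 on 1 high-fat array and 2.07, 2.96 and 2.47 in control livers. Fasted values all lay below control values, with a change of -1.15 ± 0.34 (SE, n = 3 each, adjusted p = 0.140, limma fit of both groups) and -0.97 with scaled arrays. Hgd, the homogentisate oxidase, had 1.53 on 1 fasted array and 3.64 and 2.58 on 2 control arrays.

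Gstz1 is the maleylacetoacetate isomerase between Hgd and Fah. Its ratios were -1.08, -0.79 and -1.01 in fasted, -0.39, -0.46 and -0.34 in high-fat and -0.89, -0.78, -0.58 and -0.74 in control livers. All high-fat arrays lay above all fasted and all control arrays. With scaled arrays they overlapped with the control arrays but not with the fasted ones. The change between fasted and high-fat was -0.56 ± 0.13 (SE, n = 3 each, adjusted p = 0.0948, limma), or 1.48-fold lower in fasted livers, with a 95% interval from -0.85 to -0.27, and -0.36 with scaled arrays (adjusted p = 0.460). Between high-fat and control it was 0.35 ± 0.12 (SE, n = 3 and 4, adjusted p = 0.108, limma), and 0.17 with scaled arrays. Gstz1 is the 1 tested member that lay below the array median on every array. Its sign was the same under all 20 other settings in each comparison, and none of them called it.

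Branched-chain amino acids are oxidised by a mitochondrial complex with Bckdha and Bckdhb as its decarboxylase subunits and Dbt as its core acyltransferase. Dbt had 1.18, 1.25 and 1.15 in fasted, 0.63, 0.77 and 0.76 in high-fat and 0.95, 1.10, 0.88 and 1.30 in control livers. High-fat arrays were lowest and overlapped with neither of the other groups, but with scaled arrays they overlapped with both. The change was 0.47 ± 0.14 (SE, n = 3 each, adjusted p = 0.152, limma) between fasted and high-fat and -0.34 ± 0.13 (SE, n = 3 and 4, adjusted p = 0.129, limma) between high-fat and control, or 1.26-fold lower in high-fat livers. With arrays scaled to 1 spread these came to 0.18 and -0.05, and with quantile normalisation the second turned to 0.03.

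Bckdha, from the same complex, had 0.01, 0.02 and -0.21 in fasted, -0.16, 0.17 and -0.26 in high-fat and -0.28, 0.64, -0.05 and -0.27 in control livers. The 3 groups overlapped, and the 95% interval of the fasted minus high-fat change ran from -0.47 to 0.51. Bckdhb had 2.82 and 3.18 on control arrays 2 and 3 and no other value. Ivd, the isovaleryl-CoA dehydrogenase of leucine breakdown, had 0.81, -0.06 and 0.34 on 3 control arrays.

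Tryptophan enters the kynurenine pathway through Tdo2, tryptophan dioxygenase. Its ratios were 0.75, 0.13 and 0.39 in fasted, 0.44, 0.31 and 0.31 in high-fat and 0.60, 0.68, 0.12 and 0.02 in control livers. The high-fat values lay inside the range of the others, and the high-fat minus control change was -0.00167 with a 95% interval from -0.42 to 0.41. Kmo, the kynurenine hydroxylase, had 1.49 on 1 fasted array and 2.90 and 2.23 on 2 control arrays. Kynu, which splits kynurenine, held no value. Haao, which makes the precursor of quinolinate, had 1.10 and 0.69 in fasted, 1.08 in high-fat and 2.05 in control livers.

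Histidine breakdown was represented by Amdhd1, which opens the imidazolone ring. It had 2.70, 2.41 and 2.29 in fasted, 2.14, 2.09 and 2.23 in high-fat and 2.85 and 2.22 in control livers. Fasted arrays lay above high-fat arrays by 0.06 or more, with a change of 0.31 ± 0.18 (SE, n = 3 each, adjusted p = 0.437, limma) that turned to -0.52 with scaled arrays. Ftcd, which passes the formimino group to folate, had 0.97 on 1 fasted array and -0.20, 1.98 and 0.67 on 3 control arrays. The spots of Hal and Uroc1, the earlier enzymes of the pathway, were empty on the 10 arrays.

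Methionine is activated by Mat1a, the methionine adenosyltransferase of adult liver. It had 1.86, 1.57 and 1.73 in fasted, 1.78, 1.29 and 1.82 in high-fat and 2.72, 2.95, 1.68 and 1.56 in control livers. Control arrays 1 and 2 stood above all other arrays, and control arrays 3 and 4 among the fasted and high-fat ones. The change between high-fat and control was -0.60 ± 0.31 (SE, n = 3 and 4, adjusted p = 0.248, limma), 0.11 with scaled arrays and -0.36 without control array 2. Bhmt, which remakes methionine from homocysteine with betaine, had 1.30 and 0.32 in fasted livers, 0.62 on 1 high-fat array and 2.05, 3.00 and 1.54 in control livers. The fasted and control arrays did not overlap, with a change of -1.39 ± 0.44 (SE, n = 2 and 3, adjusted p = 0.167, limma fit of both groups), -1.25 with scaled arrays and -0.98 without control array 2.

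Homocysteine leaves the methionine cycle through Cbs and Cth, which make cystathionine and cysteine. Cbs had 1.24 on 1 high-fat array and 2.43, 0.63 and 1.14 in control livers, and Cth had 1.77 on 1 fasted array and 2.99 and 0.68 in control livers. The spots of Gnmt and Ahcy, which use up S-adenosylmethionine and its product, held no value on the 10 arrays. Lysine breakdown begins with Aass, which had 0.33 and -0.59 in fasted livers, -0.30 on 1 high-fat array and 2.01, 0.84 and 0.49 in control livers. The fasted and control arrays did not overlap, and the change was -1.24 ± 0.46 (SE, n = 2 and 3, adjusted p = 0.212, limma fit of both groups), or -0.80 without control array 2. Prodh, the proline dehydrogenase, had -0.02 on 1 fasted array and 0.50 and 0.34 in control livers. Gldc, the glycine decarboxylase, had 1.13 and 0.56 on control arrays 2 and 3.

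**Figure D4:**
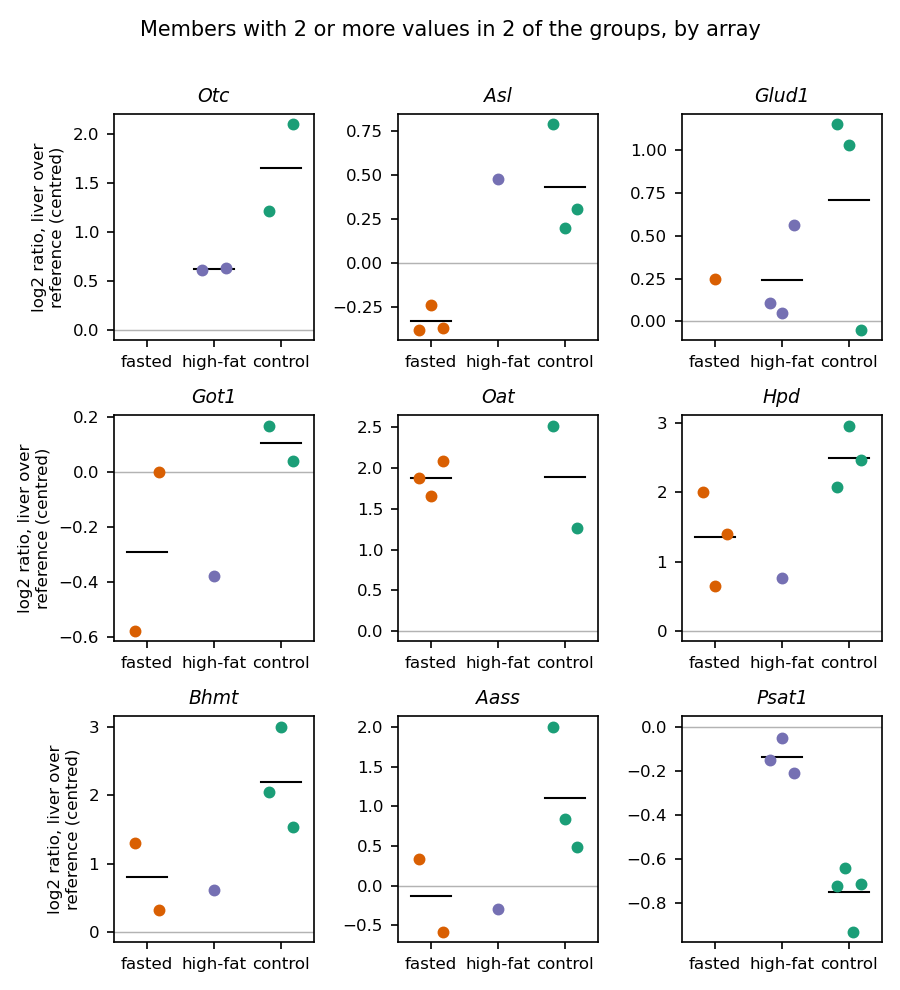
Centred log2 ratio of liver over reference for the 9 members with 2 or more values in only 2 of the groups; each point is 1 array, bars are means of groups with 2 or more values, and an empty place means that no array of that group was filled. Fasted arrays lie below control arrays for Asl, Got1, Hpd, Bhmt and Aass. High-fat arrays lie above control arrays for Psat1 and below them for Otc. Over all genes, 899 of 3905 did not overlap between fasted and control and 1011 of 3907 between high-fat and control.

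Serine is made from a glycolytic intermediate by Phgdh, Psat1 and Psph in turn. Phgdh, the first enzyme, had 1.51, 1.85 and 1.99 in fasted, 0.99, 1.57 and 1.55 in high-fat and 2.38, 1.89 and 1.82 in control livers. The high-fat arrays lay below all control arrays, while fasted arrays overlapped with both. With scaled arrays high-fat and control arrays overlapped as well. The change between high-fat and control was -0.66 ± 0.21 (SE, n = 3 each, adjusted p = 0.0877, limma), or 1.58-fold lower, with a 95% interval from -1.13 to -0.19. It was -0.08 with scaled arrays and turned to 0.02 with quantile normalisation.

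Psat1, the aminotransferase that follows it, had -0.15, -0.05 and -0.21 in high-fat and -0.72, -0.64, -0.93 and -0.71 in control livers, with no value in fasted livers. All high-fat arrays lay above all control arrays. The change was 0.61 ± 0.14 (SE, n = 3 and 4, adjusted p = 0.0673, limma fit of both groups), or 1.53-fold higher, 0.50 with scaled arrays (adjusted p = 0.134) and 0.65 without control array 2 (adjusted p = 0.0564). Like Gstz1, Psat1 lay below the array median wherever it held a value, which for Psat1 was 7 of the 10 arrays used. Psph and the asparagine synthetase Asns held no value on the 10 arrays.

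**Figure D5:**
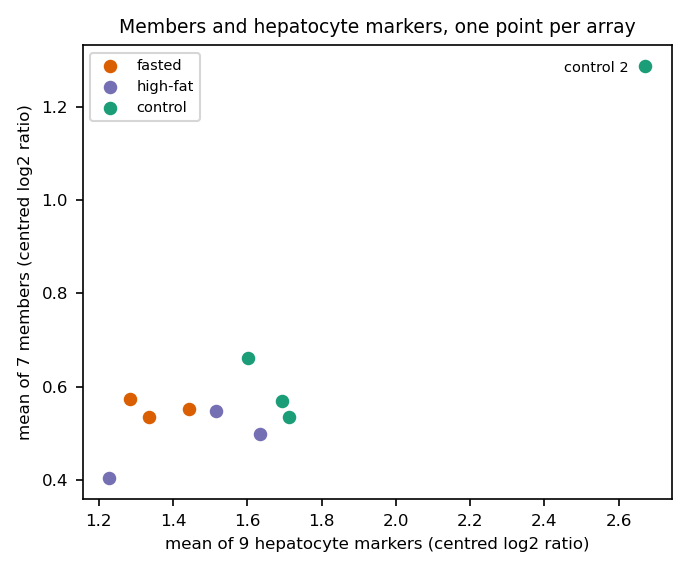
Mean centred log2 ratio of the 7 members filled on all 10 arrays (vertical) against that of 9 hepatocyte markers (horizontal), with 1 point per array. Control array 2 stands apart at 1.29 and 2.67, and the other 9 arrays lie between 0.40 and 0.66 on the vertical axis. With arrays scaled to 1 spread, not drawn here, the marker mean was 2.66 on high-fat array 1 and 2.17 on control array 2.

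Other genes of amino acid metabolism were taken from a list of 79, of which 59 have a spot and 14 could be tested. None of the 14 passed in any comparison (0 rose, 0 fell). At an unadjusted p under 0.05 there were 4 for high-fat minus control (Kyat1, Slc38a4, Ddo and Bcat2, whose means are given below). There were 2 for fasted minus high-fat and 4 for fasted minus control. The shares over all genes were 25.2%, 14.6% and 20.4% in that order. With scaled arrays there were 1, 1 and 3, against 19.2%, 9.75% and 15.3% of all genes. Kyat1, a cytosolic kynurenine aminotransferase, had means of 0.84 in fasted, 0.90 in high-fat and 1.48 in control livers, with changes of -0.64 (adjusted p = 0.0583, limma) between fasted and control and -0.58 (adjusted p = 0.0659) between high-fat and control. Slc38a4, an amino acid transporter of hepatocytes, had 1.16 in fasted, 0.39 in high-fat and 1.64 in control livers, with an adjusted p of 0.0698 (limma) between high-fat and control. Slc38a4 was filled on only part of the 10 arrays used, and Kyat1, Ddo and Bcat2 on all 10. Ddo, the aspartate oxidase, had 1.05 in fasted, 0.93 in high-fat and 1.82 in control livers, with adjusted p of 0.150 and 0.0864 against control. Bcat2, the mitochondrial branched-chain aminotransferase, had -1.12 in fasted, -0.66 in high-fat and -1.08 in control livers, with adjusted p of 0.182 between fasted and high-fat and 0.0909 between high-fat and control.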

How the data were processed

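The authors deposited, per the labels, log ratios of liver RNA (Cy5) over universal mouse reference RNA (Cy3), taken here as log2 values. Not given in the sources used here are the base, the scanner, the background correction, the normalisation and the rule behind the empty cells. Spots were named from the platform's probe table. Each array was centred on its median, and spots of 1 symbol were averaged. Genes with 2 or more values in each group, 3558 in all, entered a limma fit (version 3.58.1, R 4.3.3) on 10 arrays, with 1 mean per group. Tests were two-sided, with Benjamini-Hochberg adjustment per comparison and a threshold of 0.05. High-fat array 4 was left out by the rule that defines the members. The members and lists were chosen with earlier results of these data known. All members with a spot were named. No intensities were used, and precision is limited by how many arrays there are. Each p-value sets a change against the spread between arrays within groups. With 1 mouse per array, differences between mice and between arrays are not separated. The alternatives were other scalings, fits with other arrays or genes, a block by mouse number and each array left out. The pipeline was tested on simulated data. Fits of 2 groups alone over their own genes were added after the values had been seen.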

Additional observations from a re-analysis of the deposited data

Results flagged for a closer look

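High-fat array 4, which stands outside the comparisons, held values for 14 members, of which Arg1, Uroc1, Gnmt and Psph had no control value. It lay below every filled control array for Otc, Ass1, Got2, Oat, Amdhd1, Cth, Cbs and Bckdha. For the remaining 2, Psat1 and Ivd, it lay above every filled control array. Psat1 had 2.16 there, against -0.64 on the highest control array, and Ivd also had 2.16, against 0.81 on the highest control array. The ratios of this array did not correlate with those of any other array used, and whether they belong to the genes named was not tested. These are values of 1 array with no replicate. Of the 8 members with 4 control values, none had a single control array set apart from the others by Dixon's criterion. With 4 values this criterion picks out only a very wide gap. Members with fewer control values, Agxt among them, were not looked at.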

How the results depend on the processing

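None of the 11 members tested in all groups passed under any setting run (smallest adjusted p 0.0702), nor did those added in fits of 2 groups (smallest 0.0518, for Asl with quantile normalisation). Of 621 pairs of a member's change and another setting, 49 turned sign, 21 of them with an array left out. The members' median between high-fat and control was -0.053 with arrays scaled to 1 spread and 0.028 with quantile normalisation. With scaled arrays the high-fat minus control change turned to 0.66 for Amdhd1, 0.032 for Ass1, 0.11 for Mat1a and 0.15 for Tdo2. The fasted minus high-fat change turned to -0.52 for Amdhd1, -0.43 for Ass1, -0.56 for Mat1a, -0.077 for Phgdh and -0.090 for Tdo2, and fasted minus control to 0.14 for Amdhd1. With quantile normalisation high-fat minus control turned to 0.57 for Amdhd1, 0.037 for Ass1, 0.028 for Dbt, 0.12 for Mat1a, 0.020 for Phgdh and 0.18 for Tdo2. Under it fasted minus high-fat turned to -0.10 for Amdhd1, -0.35 for Ass1, -0.28 for Mat1a and -0.078 for Tdo2, and fasted minus control to 0.48 for Amdhd1 and 0.063 for Phgdh. As deposited, fasted minus control turned to 0.12 for Amdhd1 and 0.11 for Bckdha, while the median of all genes shifted by 0.20 for fasted minus high-fat and 0.19 for fasted minus control. Centring on spots filled on all arrays gave -0.00417 for Agxt (fasted minus high-fat) and -0.021 for Tdo2 (fasted minus control). In fits of 2 groups Oat turned to 0.050 with scaled arrays and 0.46 with quantile normalisation. The cause was not tested for any of these.

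With 1 array left out, fasted minus control ran from -0.77 to 0.02 for Agxt, -0.18 to 0.02 for Amdhd1, -0.17 to 0.14 for Bckdha and -0.10 to 0.21 for Tdo2. Fasted minus high-fat ran from -0.05 to 0.11 for Agxt, -0.13 to 0.38 for Ass1, -0.065 to 0.15 for Bckdha, -0.08 to 0.18 for Mat1a and -0.093 to 0.22 for Tdo2, and high-fat minus control from -0.22 to 0.12 for Bckdha and -0.11 to 0.11 for Tdo2.

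Over all genes, 114 were called for fasted minus control, 13 for fasted minus high-fat and 175 for high-fat minus control. The first count was 25 with all 11 arrays, 10 with scaled arrays, 198 as deposited, 57 with only the groups compared in the fit and 47 with their own genes as well. The second was 3 with all 11 arrays, 24 with quantile normalisation, 7 with only fully filled genes, 53 with only the groups compared and 49 with their own genes. The third was 86 as deposited, 23 with only the groups compared and 25 with their own genes. With 1 array left out they ran from 5 to 157, 3 to 23 and 22 to 190. Dropping fasted array 2 took the first to 5, fasted array 1 to 7, fasted array 3 to 70, control array 1 to 54, control array 3 to 74 and high-fat array 3 to 72. The second was 23 without control array 2 and 3 to 7 without any other. Leaving out high-fat array 2 took the third to 22, high-fat array 3 to 34 and high-fat array 1 to 100, against 55 when control array 3 was dropped, 101 when it was control array 1, and 113 or 116 when fasted array 1 or 2 was absent. The members' median then ran from -0.35 to -0.09 (without control array 2), 0.09 to 0.23 (without high-fat array 3) and -0.64 to -0.26 (without control array 2).

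The labels' mouse numbers name separate mice. Same-numbered arrays had correlations of their deviations from group means between -0.18 and 0.18 (9 pairs), and others between -0.23 and 0.25 (24 pairs). With so few arrays these ranges cannot tell whether same-numbered arrays share more than a number. The replicate block gave 132, 4 and 135 called genes and 0 called members, with -0.033 for Fah (fasted minus high-fat) and -0.043 for Tdo2 (fasted minus control).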

Other observations

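Of 15 regulators of hepatic amino acid and glucose metabolism, 13 have a spot and 4 could be tested (Cebpa, Cebpb, Creb1 and Foxo1), and none passed in any comparison with limma. Creb1, the cyclic AMP-responsive transcription factor, had means of -0.79 in fasted and -0.17 in control livers, a change of -0.62 ± 0.17 (SE, adjusted p = 0.0959, limma). Creb1 was filled on only part of the 10 arrays used, while Cebpa, Cebpb and Foxo1 were filled on all 10. Cebpb, a factor that drives gluconeogenic genes, had -0.22 in fasted and -0.83 in control livers, a change of 0.61 ± 0.25 (SE, adjusted p = 0.184, limma). Foxo1, a factor restrained by insulin, had 0.06 in fasted, 0.42 in high-fat and 0.13 in control livers, with a change of -0.36 ± 0.11 (SE, adjusted p = 0.171, limma) between fasted and high-fat.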
